A study of Mus musculus with 6 samples.

Results

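The 10 checkpoint genes, Tigit, Cd226, Cd96, Pdcd1, Lag3, Havcr2, Ctla4, Btla, Cd160 and Cd200, were followed across the RNA of regulatory T cells (Tregs) from BM. They were chosen by name as the checkpoint receptors of T cells together with the TIGIT-CD226 axis, and all 10 are among the 13923 features with a mean of at least 1 RPKM that were tested. RNA was measured in 6 libraries, 3 from naive mice and 3 from CML mice, with 1 library for each mouse. All mice carried the Foxp3-DTR-GFP allele, in which the Foxp3 locus drives the diphtheria toxin receptor and GFP, and were at postnatal week 8. CML mice were nonirradiated syngeneic recipients of LSKs transduced with BCR-ABL1-GFP and were taken at day 15 after induction, so they still had their own hematopoiesis. The leukemic cells carry GFP as the Tregs do.

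Checkpoint receptors are surface proteins that dampen or tune T cell activation. TIGIT, CD226 and CD96 share ligands of the nectin family. TIGIT is the inhibitory arm and CD226 the costimulatory arm, and both bind CD155, the product of Pvr. PD-1 (Pdcd1), LAG-3 (Lag3), TIM-3 (Havcr2), CTLA-4 (Ctla4) and BTLA (Btla) are the other classical inhibitory receptors, and on Tregs several of them, CTLA-4 and TIGIT above all, are known parts of the suppressive program.

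Values are RPKM, which divide reads by feature length and library depth. Depth was estimated from the steps between low values of miRNA and snoRNA genes. It was 829181 to 7613827 reads in CML Tregs and 5187987 to 9751911 reads in naive Tregs, and CML replicate 2 was the shallowest library. Intervals from these reads cover counting error only, since amplified reads are not independent molecules. Foxp3 was at 299.2 to 468.0 RPKM in CML and 297.2 to 366.9 RPKM in naive Tregs, and all 8 markers of Tregs and CD4 T cells were above 5 RPKM in at least 1 library. Ctla4, itself a checkpoint gene followed here, is among these 8 markers. Other cells can carry these receptors too. By flow cytometry, the paper found Tigit in CML marrow on part of the CD8 T cells as well. It also named Foxp3-negative CD4 T cells, leukemic granulocytes and leukemia stem cells. Natural killer cells are of interest because they also carry TIGIT, CD96, CD226 and CD160. Their markers summed to 5.64 to 18.7 RPKM in CML and 5.83 to 17.4 RPKM in naive Tregs. Klrd1 made up most of that sum except in CML replicate 3, where Ncr1 was at 4.56 RPKM. Klrd1 was at 6.63, 18.7 and 0 RPKM in CML and at 15.7, 10.3 and 5.13 RPKM in naive Tregs. Klra4 and Klra8 were at 0 in all 6 libraries. The CD8 T cell markers summed to 51.1 to 74.2 RPKM in CML and 26.2 to 58.7 RPKM in naive Tregs. Markers of monocytes, macrophages and dendritic cells summed to 168.3 to 222.7 RPKM in CML and 140.3 to 298.7 RPKM in naive Tregs. Siglech made up most of that sum, at 129.0 to 143.5 RPKM in CML and 91.9 to 221.9 RPKM in naive Tregs. Cd68 was at 23.5 to 47.4 RPKM in CML and 26.1 to 46.6 RPKM in naive Tregs, and Fcgr1 was at 0. Erythroid markers summed to at least 41.8 RPKM in each CML library and to 5.93 to 30.9 RPKM in naive Tregs. Neutrophil markers summed to 9.98, 206.6 and 222.7 RPKM in CML replicates 1, 2 and 3 and to 30.4 to 53.7 RPKM in naive Tregs, with Retnlg at 0. Markers of leukemia stem and progenitor cells summed to 142.8 to 167.0 RPKM in CML and 62.2 to 81.1 RPKM in naive Tregs. Ly6a, which T cells also express, made up most of that sum, and Kit stayed at or below 2.60 RPKM. Gata2 was low but higher in each CML library, at 2.003 to 8.357 RPKM against 0 to 0.948 RPKM in naive Tregs. Kit, Cd34 and Meis1 overlapped between the groups. The erythroid and progenitor sums move with the groups, and the neutrophil sum was high in CML replicates 2 and 3 only. The part of any of these other cells in the results below was not tested.

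Of the 10 checkpoint genes, 5 lay above all naive libraries in each CML library (Tigit, Pdcd1, Lag3, Havcr2 and Ctla4), 1 lay below them (Cd96), and 4 overlapped between the groups (Cd226, Btla, Cd160 and Cd200). Among all 13923 features, 4.84% were higher and 12.2% were lower without overlap. Tigit alone passed a limma test on log2(RPKM + 1) at an adjusted p under 0.05 with a fold of at least 1.5. Such calls were made for 24 features in all, 0.172% of those tested, and 6 of them, 0.0431%, were higher in CML. At an unadjusted p under 0.05 with the same fold, 4 receptors were higher (Tigit, Pdcd1, Lag3 and Havcr2), against 2.61% of all features, and 1 was lower (Cd96), against 5.94%. The median log2 fold change of the 10 genes was 0.35 and that of all features was -0.18. Quantile normalization moved the median of all features to -0.01 and the features past the unadjusted threshold from 363 higher and 827 lower to 624 higher and 590 lower. The p values rest on the spread between these libraries. With 1 library for each mouse, that spread holds differences between mice together with those of library making and depth. In bulk RNA fewer cells of a type and less RNA per cell cannot be told apart.

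**Figure D1:**
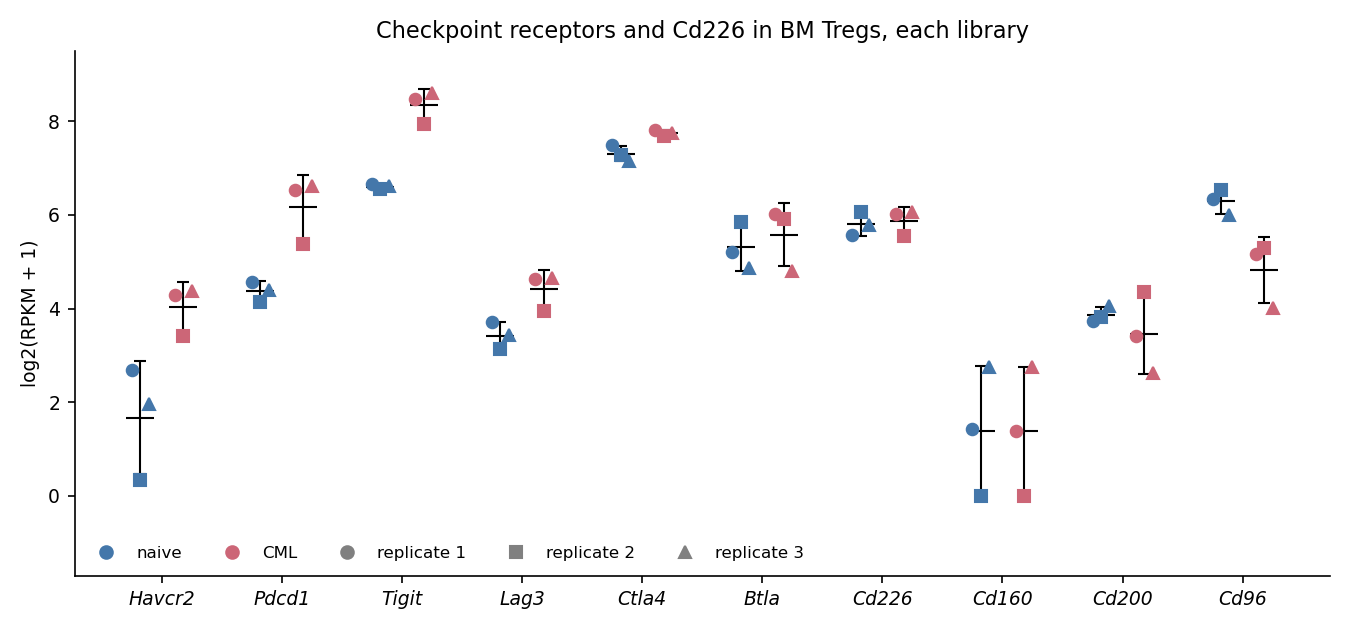
Level of each gene in each library as log2(RPKM + 1), with naive Tregs in blue, CML Tregs in red, and bars for the mean and SD of 3 libraries. Tigit, Pdcd1, Lag3, Havcr2 and Ctla4 lie higher in all 3 CML libraries, Cd96 lies lower in all 3, and the other 4 genes overlap.

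Tigit, which encodes the inhibitory receptor of the axis, was at 356.2, 242.5 and 386.2 RPKM in CML replicates 1, 2 and 3 and at 100.1, 92.2 and 96.6 RPKM in naive replicates 1, 2 and 3. The naive libraries lay within 1.09-fold of each other, and the lowest CML library was above the highest naive one. The mean was 328.3 ± 75.8 RPKM (SD, n = 3) in CML and 96.3 ± 3.97 RPKM (SD, n = 3) in naive Tregs, a ratio of 3.41. The log2 fold change was 1.73 with a standard error of 0.20 and a 95% interval of 1.27 to 2.19, and limma gave an adjusted p of 0.035. The call was lost when any library other than CML replicate 2 was left out, with adjusted p values of 0.11 to 0.288 by limma at log2 fold changes of 1.60 to 1.76. It was also lost with a pseudocount of 0.001 (0.096), without the filter (0.114) and without the variance trend (0.161). The lowest CML value rests on an estimated 185 reads and has a counting interval of 209.0 to 280.0 RPKM, above every naive value.

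Cd226, which encodes the costimulatory receptor that competes with TIGIT for the same ligands, was at 64.2, 45.7 and 65.5 RPKM in the CML libraries and at 46.5, 66.2 and 54.0 RPKM in the naive libraries. The groups covered the same range. Its log2 fold change was 0.07 with a standard error of 0.22, and the 95% interval of -0.45 to 0.58 still allows a moderate change in either direction (limma adjusted p = 0.934). Scaling the libraries to the same Cd3 level turned its direction, to -0.08.

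Cd96, which encodes the other receptor for CD155, differed in the other direction. It was at 34.9, 38.0 and 15.2 RPKM in CML and at 79.4, 91.7 and 63.0 RPKM in naive Tregs, so the highest CML library lay below the lowest naive one. The mean was 29.4 ± 12.4 RPKM in CML and 78.0 ± 14.4 RPKM in naive Tregs (SD, n = 3 each), so CML Tregs held 37.7% of the naive mean. This log2 fold change of -1.46 had a standard error of 0.35, and its adjusted p by limma was 0.242.

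The windows upstream of Tigit and Cd96, which differed in opposite directions, and of Pdcd1, whose profile over the libraries lay near that of Tigit, are shown as the 250 bases before the RefSeq start site on GRCm38.p6, all on the minus strand and written 5′ to 3′. Capitals mark matches on either strand to RUNX (TGTGGT) and STAT (TTCNNNGAA) letters. The Tigit window is chr16:43664185-43664434, the Cd96 window chr16:46120249-46120498 and the Pdcd1 window chr1:94052554-94052803.
Tigit: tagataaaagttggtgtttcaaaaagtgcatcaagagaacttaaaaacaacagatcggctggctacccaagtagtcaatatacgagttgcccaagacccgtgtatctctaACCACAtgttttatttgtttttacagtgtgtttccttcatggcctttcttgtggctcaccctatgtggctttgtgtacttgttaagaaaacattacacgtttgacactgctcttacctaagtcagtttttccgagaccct
Cd96: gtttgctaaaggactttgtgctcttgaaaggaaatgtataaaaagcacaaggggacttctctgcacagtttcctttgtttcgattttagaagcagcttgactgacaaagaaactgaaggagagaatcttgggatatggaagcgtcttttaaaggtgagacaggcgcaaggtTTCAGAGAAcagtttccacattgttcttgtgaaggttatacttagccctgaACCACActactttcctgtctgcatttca
Pdcd1: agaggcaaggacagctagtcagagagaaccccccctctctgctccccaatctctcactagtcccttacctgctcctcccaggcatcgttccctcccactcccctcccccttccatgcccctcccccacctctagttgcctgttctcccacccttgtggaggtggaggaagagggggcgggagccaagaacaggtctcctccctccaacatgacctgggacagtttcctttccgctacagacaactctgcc
A RUNX match lies in both the Tigit and the Cd96 window, a STAT match lies in the Cd96 window, and the Pdcd1 window holds neither. RefSeq windows of 8 of the 10 genes were searched, and Cd226 and Lag3 were not among them, so their letters are not described here. Cd160 has 2 start sites and so 2 windows, which makes 9 windows in all. Of the 8 genes, 5 had a RUNX match (Tigit, Cd96, Havcr2, Btla and Cd160), or 6 of the 9 windows, against 14.0% of 32851 promoter windows. A STAT match was in 2 genes and 2 of the 9 windows (Cd96 and the second window of Cd160), against 7.02%. The NFAT core GGAAA, left in lower case, was in 5 of the 9 windows, against 55.6%. AP-1 (TGANTCA) was matched in Havcr2, TCF (CTTTGA) and T-box (TCACACC) in the second window of Cd160, and forkhead (TGTTTAC) in none, against 6.75%, 13.8%, 3.33% and 3.17% of all windows. The STAT and TCF matches in Cd160 overlap. A match is a description of letters and not a binding site.

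Within each library, the level of Tigit was set against those of its companion receptors. Tigit exceeded Cd226 by 5.55-fold, 5.31-fold and 5.90-fold in CML and by 2.15-fold, 1.39-fold and 1.79-fold in naive Tregs. On the log2(RPKM + 1) scale the difference was 2.46 ± 0.08 in CML and 0.80 ± 0.31 in naive Tregs (SD, n = 3 each), a gap of 1.66. Tigit exceeded Cd96 by 10.2-fold, 6.38-fold and 25.4-fold in CML but only by 1.26-fold, 1.005-fold and 1.53-fold in naive Tregs. That log2 difference was 3.51 ± 0.98 and 0.32 ± 0.30 (SD, n = 3 each), a gap of 3.19, and was widest in CML replicate 3, where Cd96 was lowest. The groups did not overlap in either difference. With 3 mice against 3, the smallest p of an exact 2-sided permutation test is 0.1, and each difference reached it, with 0.1 also after adjustment over the 3 differences compared.

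**Figure D2:**
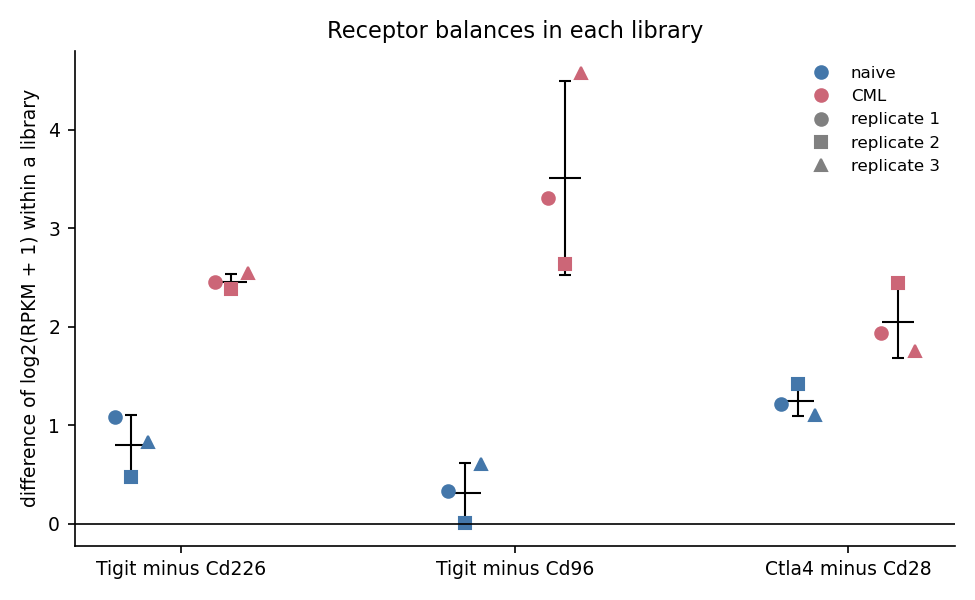
Difference of log2(RPKM + 1) between paired receptors within each library, in naive (blue) and CML (red) Tregs, with bars for the mean and SD of 3 libraries. Tigit minus Cd226 was 2.46 on average in CML and 0.80 in naive Tregs, and the groups are separate for all 3 differences.

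Pdcd1, which encodes PD-1, was at 90.8, 40.3 and 96.4 RPKM in CML and at 22.7, 16.7 and 20.11 RPKM in naive Tregs. Each CML library was above each naive one, and CML replicate 2 was the lowest of the CML libraries, with an estimated 65 reads and a counting interval of 31.3 to 51.8 RPKM. The mean was 75.8 ± 30.9 RPKM in CML and 19.8 ± 2.998 RPKM in naive Tregs (SD, n = 3 each). The log2 fold change was 1.79 with a standard error of 0.35 and an adjusted p of 0.148 by limma. Without CML replicate 2 it was 2.19 with an adjusted p of 0.0354 by limma, and the call was also made with a 75th-percentile scaling (0.0483), with quantile normalization (0.0483) and with library weights (0.0293).

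Havcr2, which encodes TIM-3, was at 18.6, 9.58 and 19.7 RPKM in CML and at 5.47, 0.270 and 2.91 RPKM in naive Tregs. The naive libraries differed from each other by 20.3-fold, and naive replicate 2 held an estimated 6 reads. Havcr2 had a log2 fold change of 2.35 with a standard error of 0.65, and limma gave an adjusted p of 0.29. In CML replicate 2 the counting interval of 6.11 to 14.8 RPKM, from an estimated 22 reads, reached into that of naive replicate 1 (4.30 to 6.82 RPKM).

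Lag3, whose product binds MHC class II, was at 23.9, 14.5 and 24.3 RPKM in CML and at 12.0, 7.75 and 9.74 RPKM in naive Tregs. The mean was 20.9 ± 5.52 RPKM in CML and 9.84 ± 2.15 RPKM in naive Tregs (SD, n = 3 each). On the log2 scale the difference was 0.999 with a standard error of 0.33 (limma adjusted p = 0.384). The groups did not overlap, although the interval of CML replicate 2, 9.27 to 21.5 RPKM from an estimated 24 reads, included 2 of the 3 naive values.

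Ctla4, which encodes the receptor through which Tregs remove CD80 and CD86 from antigen-presenting cells, was at 221.8, 204.6 and 213.4 RPKM in CML and at 178.5, 154.0 and 141.7 RPKM in naive Tregs. It was the tightest of the 10 genes within CML, where the libraries lay within 1.08-fold. The mean was 213.3 ± 8.62 RPKM in CML and 158.1 ± 18.7 RPKM in naive Tregs (SD, n = 3 each), a ratio of 1.35, below the fold of 1.5. Its log2 fold change was 0.44 with a standard error of 0.15 (limma adjusted p = 0.405), and scaling to the same Cd3 level lowered it to 0.29 and made the groups overlap. Against Cd28, which encodes the activating receptor for the same ligands, Ctla4 was higher by 1.94, 2.45 and 1.75 on the log2(RPKM + 1) scale in CML and by 1.22, 1.42 and 1.11 in naive Tregs. The gap of 0.80 between the groups took the smallest exact permutation p of 0.1. Cd28 was at 57.2, 36.7 and 62.6 RPKM in CML and at 76.3, 56.9 and 65.1 RPKM in naive Tregs, which overlap.

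The remaining genes did not separate the groups. Btla, whose product binds HVEM, was at 63.6, 59.4 and 27.0 RPKM in CML and at 36.1, 56.7 and 28.1 RPKM in naive Tregs. The difference was 0.27 on the log2 scale (95% interval -0.62 to 1.16, limma adjusted p = 0.83). Cd200, which encodes a ligand that acts through CD200R1, was at 9.65, 19.4 and 5.17 RPKM in CML and at 12.3, 13.1 and 15.5 RPKM in naive Tregs. On the log2 scale it differed by -0.41 (95% interval -1.46 to 0.65, limma adjusted p = 0.773). Cd200 varied by 3.75-fold among the CML libraries and by 1.26-fold among the naive libraries. Cd160, another receptor for HVEM, was at 1.62, 0 and 5.76 RPKM in CML and at 1.70, 0 and 5.77 RPKM in naive Tregs. A floor of 3 reads is worth 1.40 RPKM in CML replicate 2 and 0.132 RPKM in naive replicate 2, and the upper end of the exact 95% Poisson interval around 0 is 1.72 RPKM and 0.162 RPKM. The exons of Cd160 overlap those of Pdzk1 on the other strand, so reads of the pair may not be told apart. Its log2 fold change was -0.01 with a 95% interval of -2.15 to 2.12.

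**Figure D3:**
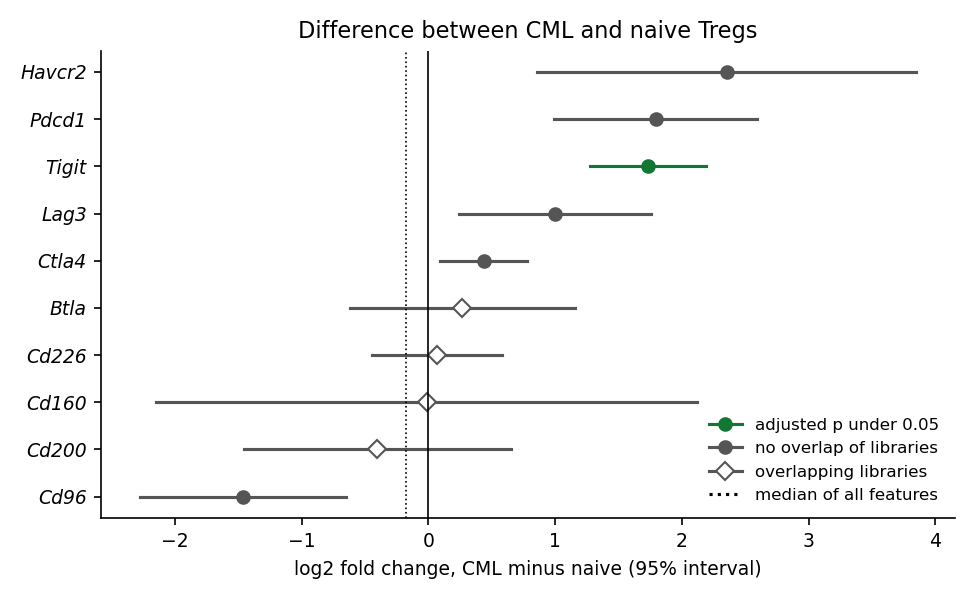
Log2 fold change of each gene, CML minus naive, with its 95% interval from limma, and the median of all features (-0.18) as a dotted line. The interval of Tigit, from 1.27 to 2.19, is in green because it passed the adjusted threshold, and open diamonds mark the 4 genes whose libraries overlap.

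The order of the genes by RPKM, a length-scaled level, differed between the groups. In naive Tregs the means ran Ctla4, Tigit, Cd96, Cd226, Btla, Pdcd1, Cd200, Lag3, Havcr2 and Cd160. In CML Tregs they ran Tigit, Ctla4, Pdcd1, Cd226, Btla, Cd96, Lag3, Havcr2, Cd200 and Cd160. Tigit was thus first in CML and Ctla4 first in naive Tregs, in all 3 libraries of each. The ranges of Tigit and Ctla4, and of Ctla4 and Pdcd1, were separate in CML, and each other pair of neighbors overlapped. In naive Tregs Cd96 overlapped Cd226, Cd226 overlapped Btla and Havcr2 overlapped Cd160, and the other neighbors were separate. Tigit made up 40.2%, 36.0% and 45.0% of the summed RPKM of the 10 genes in CML and 20.2%, 18.5% and 22.1% in naive Tregs. The sums themselves were 885.2, 674.0 and 858.5 RPKM in CML and 494.8, 498.6 and 437.5 RPKM in naive Tregs.

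Of all features tested, those whose library profile lay nearest to that of Tigit, by root mean square distance between gene-centered log2(RPKM + 1) values over the 6 libraries, were Lilrb4 (0.148), Asb2 (0.178), Arl5a (0.187), Smim24 (0.191) and Pdcd1 (0.216). Pdcd1 was thus the nearest of the other 9 checkpoint genes. Lag3 followed at 0.391 with 54 features nearer, whereas Cd96, at 1.70, had 12878 features nearer. These distances describe the same 6 libraries in which Tigit differs between the groups. Lilrb4, which encodes an inhibitory immunoglobulin-like receptor, was at 102.6, 76.4 and 104.8 RPKM in CML and at 24.7, 23.9 and 32.4 RPKM in naive Tregs. Its log2 fold change was 1.77 (limma adjusted p = 0.0365). It has a close paralog, so its reads may be shared.

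Tigit, Btla, Cd200 and Cd96 lie on 1 stretch of mouse chromosome 16 in the GENCODE annotation of GRCm38. Tigit is at chr16:43648867-43664146 on the minus strand, Btla at chr16:45224315-45257670 on the plus strand, Cd200 at chr16:45382135-45409053 and Cd96 at chr16:46035657-46120251, both on the minus strand. The others lie elsewhere, Pdcd1 at chr1:94038305-94052553, Ctla4 at chr1:60887000-60915832, Lag3 at chr6:124904361-124911705, Havcr2 at chr11:46454935-46481255, Cd160 at chr3:96798763-96829351 and Cd226 on chromosome 18. From Tigit to Cd96 the stretch spans 2.47 Mb and holds 35 annotated protein-coding genes, of which 17 were tested, 13 of them other than these 4. Genes were matched by their GENCODE name, so any gene under another name in the deposited values counts as untested. Of the 17, 3 were higher without overlap (Tigit, Zdhhc23 and Atg3) and 3 were lower (Sidt1, Spice1 and Cd96), against 4.84% and 12.2% of all features. Gramd1c, Atp6v1a, Naa50, Gtpbp8, Cd200r1, Cd200r4, Slc35a5, Abhd10 and Plcxd2 overlapped between the groups, as Btla and Cd200 did. Zdhhc23, 315.6 kb from the start of Tigit, was at 7.02, 12.7 and 4.25 RPKM in CML and at 2.93, 2.78 and 3.16 RPKM in naive Tregs. Among the 13 others, none passed the adjusted threshold in limma, and Sidt1 and Gtpbp8 had an unadjusted p under 0.05, both lower in CML. The genes between Tigit and Cd96 did not share a direction.

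**Figure D4:**
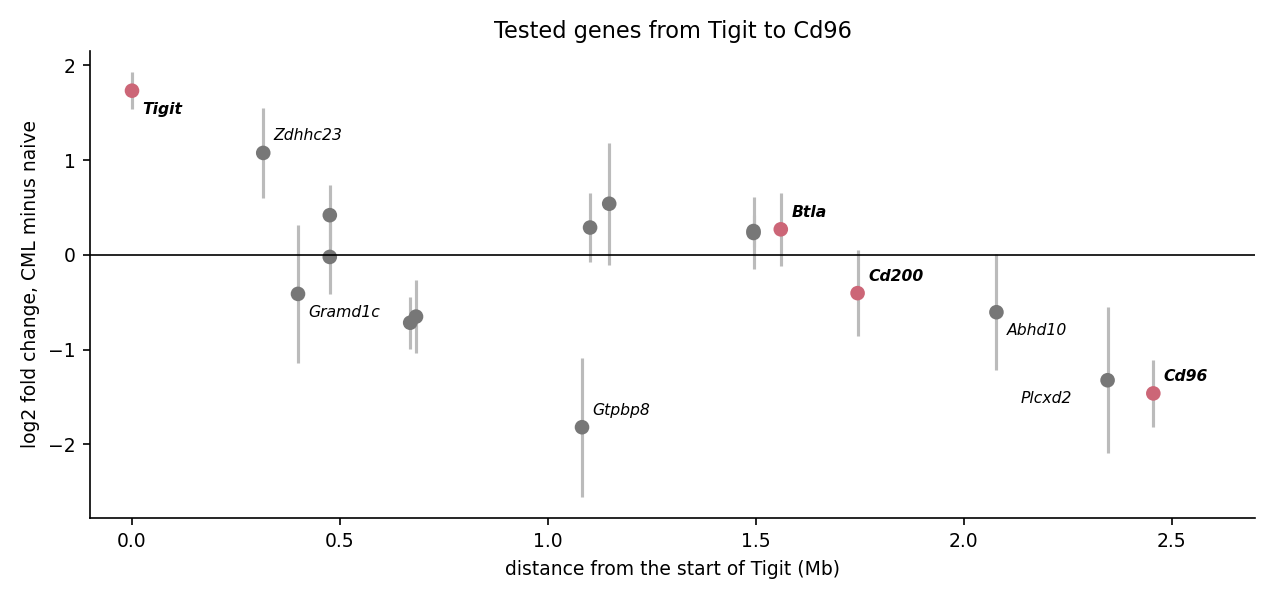
Log2 fold change, CML minus naive, with its standard error, of the 17 tested genes from Tigit to Cd96 by distance from the start of Tigit, with Tigit, Btla, Cd200 and Cd96 in red. Tigit, at 1.73, and Cd96, at -1.46, lie at the ends of the stretch, and the genes between them lie on both sides of 0.

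The 7 lists of ligands, counterparts and regulators of these receptors hold 84 genes, 74 of which were tested. Of these, 8 were higher at an unadjusted p under 0.05 and a fold of 1.5 (10.8%, against 2.61% of all features) and 3 were lower (4.05%, against 5.94%), and 2, Lilrb4 and Tcf7, passed the adjusted threshold. The median log2 fold change of the 74 genes was -0.01. With a pseudocount of 0.001, or with any 1 naive library left out, no feature passed the adjusted threshold, Lilrb4 and Tcf7 included. In the axis itself, Pvr, the gene of the shared ligand CD155, was at 13.1, 36.4 and 11.8 RPKM in CML and at 15.2, 18.4 and 21.8 RPKM in naive Tregs, with overlap. The nectin genes Pvrl1, Pvrl2, Pvrl3 and Pvrl4, and Crtam, were under the filter, with no library above 2.22 RPKM. Pvrig, a further inhibitory receptor for a nectin, which the tables name Gm36869, was at 63.7, 44.3 and 119.5 RPKM in CML and at 17.98, 29.98 and 26.2 RPKM in naive Tregs. It did not overlap, and its log2 fold change was 1.49 with a standard error of 0.37 (limma adjusted p = 0.261).

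Of the ligands of the other checkpoint receptors, 11 of 12 were tested and none passed the unadjusted threshold in either direction. Cd86, a ligand of CTLA-4 and CD28, came closest, at 2.63, 3.45 and 0 RPKM in CML and 8.06, 4.37 and 6.10 RPKM in naive Tregs, where limma gave an adjusted p of 0.526. Hmgb1, Lta and Cd200r1 were next in that list, and all overlapped between the groups. Of the 7 activating counterparts, Slamf1 and Icos were higher at the unadjusted threshold and 5 were not. Icos, a costimulatory receptor of Tregs, was at 172.5, 116.4 and 186.4 RPKM in CML and at 102.9, 88.0 and 107.8 RPKM in naive Tregs, without overlap. Slamf1, a receptor of lymphocyte contact, was at 110.0, 128.7 and 169.5 RPKM in CML and at 90.4, 64.6 and 81.6 RPKM in naive Tregs. Neither passed after adjustment (limma adjusted p = 0.389 and 0.301). Of the 11 other inhibitory receptors tested, Lilrb4 alone was higher and none was lower. Cd300a, Cd72 and Vsir, which the tables name 4632428N05Rik, followed it by p and overlapped between the groups, as did Cd27 among the activating counterparts.

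Among 15 phosphatases and adaptors downstream of the receptors, none was higher and 1 was lower at the unadjusted threshold. That gene, Sh2d1a, which encodes the SLAM adaptor SAP, was at 66.9, 12.7 and 19.5 RPKM in CML and at 66.8, 69.1 and 70.3 RPKM in naive Tregs. The groups overlapped, because CML replicate 1 was at the naive level. Ptpn6, the gene of the phosphatase SHP-1, was at 121.4, 91.6 and 125.8 RPKM in CML and at 179.2, 128.3 and 144.5 RPKM in naive Tregs. It lay lower in each CML library (log2 fold change -0.41 with a standard error of 0.20, limma adjusted p = 0.555). Arrb2 also lay lower and Grb2 higher in each CML library, with log2 fold changes of -0.39 and 0.30 (limma adjusted p = 0.561 for both). Among 9 genes of CTLA-4 trafficking, Trat1, which encodes the adaptor TRIM, was lower, at 19.4, 10.2 and 33.1 RPKM in CML and 45.8, 57.2 and 44.5 RPKM in naive Tregs, and none was higher. Trat1 had an adjusted p of 0.323 by limma, and Rab11a, Lax1 and Pld1, next in that list, overlapped between the groups.

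Of 20 transcription factors known to act on checkpoint genes, 19 were tested. Among them 4 were higher and 1 was lower at the unadjusted threshold. Tcf7, which encodes TCF-1, was at 70.6, 85.8 and 72.4 RPKM in CML and at 287.2, 454.8 and 217.6 RPKM in naive Tregs. Its log2 fold change was -1.99 with a standard error of 0.26 and an adjusted p of 0.0445 by limma. Prdm1, which encodes BLIMP-1, was at 53.5, 39.4 and 51.9 RPKM in CML and at 19.9, 21.3 and 21.9 RPKM in naive Tregs, 1.15 higher in CML on the log2 scale (limma adjusted p = 0.131). Tbx21, the gene of T-bet, was at 20.04, 17.4 and 21.7 RPKM in CML and at 5.93, 8.59 and 12.4 RPKM in naive Tregs. Both were higher in each CML library, whereas the other 2 at that threshold, Nfil3 and Maf, overlapped between the groups. Without overlap, 6 of the 19 were higher (Prdm1, Tbx21, Stat3, Batf, Nr4a1 and Tox2) and 3 were lower (Tcf7, Foxo1 and Runx1), against 4.84% and 12.2% of all features. Stat3, Batf, Nr4a1 and Tox2 had log2 fold changes of 0.48, 0.99, 0.44 and 0.65, and Foxo1 and Runx1 of -0.57 and -0.25, with limma adjusted p values of 0.487 to 0.655.

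**Figure D5:**
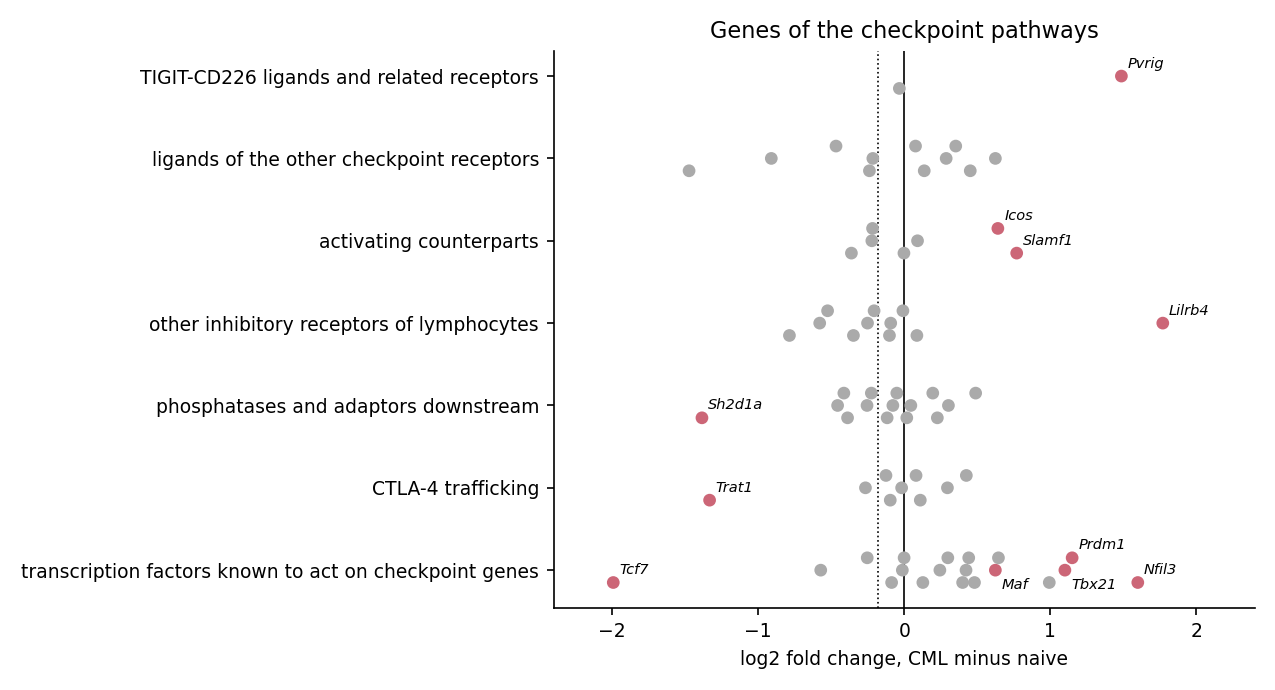
Log2 fold change, CML minus naive, of the 74 tested genes of the 7 lists, 1 point a gene, with the median of all features (-0.18) as a dotted line. Red points and names mark the 8 higher and 3 lower genes past the unadjusted threshold, of which Lilrb4 and Tcf7 also passed after adjustment.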

How the data were processed

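Libraries were made from total RNA of FACS-purified BM Tregs with the SMART-Seq v4 kit and sequenced on an Illumina NextSeq. The authors assembled reads in SeqMan NGen and quantified them in ArrayStar, and the submitters' processing notes name GRCm38 and mm10. The unit of the deposited tables is not named by the authors and was taken to be RPKM. Values of miRNA and snoRNA genes were multiplied by gene length. Of these products up to 20 steps, 32.0% to 59.0% came within 0.05 of a whole number of equal steps, against 10% by chance. The step also gave the estimated reads of each library. Estimated reads of a gene, and their intervals, used the length of its longest coding transcript in GENCODE, so they are approximate. A deposited value of 0.001 marks no reads and was set to 0.

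Groups and replicate numbers came from the labels. Differences were tested with limma 3.58.1 (R 4.3.3) on log2(RPKM + 1) for features with a mean of at least 1 RPKM, with a trended prior and Benjamini-Hochberg adjustment over 13923 features. The fold change on this scale understates that of low genes. As the values are not counts, no count test was run. Single within-library differences were compared by exact 2-sided permutation. Poisson intervals are exact at 95%. Python 3.11.15, numpy 2.4.6, pandas 2.3.3 and scipy 1.17.1 were used. The fit was tested on simulated data with 200 changed genes, all drawn from features with a mean log2(RPKM + 1) above 3. The fit recovered 35% of changes of 1.5 on the log2 scale and 84% of changes of 3, with 6 false calls. Recovery of features with lower means, such as Cd160, was not measured.

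The genes and lists were chosen with earlier results of these data known, and Tigit, Cd96, Pdcd1 and Lag3 also belong to a list the study selected on these same samples, so their differences are not independent evidence. The text names all 10 genes, up to 4 genes of each list by lowest limma p, the 5 features nearest to Tigit and the tested genes between Tigit and Cd96. Maf, Stat3, Batf, Nr4a1, Tox2, Foxo1 and Runx1 were named after their values were seen. Alternatives covered the pseudocount, the filter, scaling, each library left out, the replicate block, the variance trend and library weights. A further marker list is not reported here.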

Additional observations from a re-analysis of the deposited data

How the results depend on the processing

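The count of the 10 genes past the adjusted threshold, 1 as reported, was 0 with a pseudocount of 0.001, without a filter, with the replicate block and without the variance trend. It was 2 with the same 75th percentile, with quantile normalization and with library weights, and 0 to 2 with each library left out. Tigit was called in 7 of 16 alternatives, with log2 fold changes of 1.58 to 1.94 and limma adjusted p values of 0.00359 to 0.288, and Pdcd1 in 4 of 16, with 1.57 to 2.19. The other 8 genes were called in none. The reported list count of 11 past the unadjusted threshold ranged from 7 to 16 with each library left out. Cd226 turned to -0.0772 with the same Cd3 level and ranged from -0.0502 to 0.233 with each library left out. Cd160 turned to 0.26 with quantile normalization and ranged from -0.713 to 0.677, and Cd200 from -0.849 to 0.0138, with each library left out. Cd160 gave no value with a mean of at least 5 RPKM. The cause was not tested.

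Over all features, the 24 adjusted calls became 1 without a filter and 1 with the replicate block, 0 with a pseudocount of 0.001 and 0 without any 1 of the naive libraries, 53 with the same 75th percentile, 53 with quantile normalization, 43 with the same Cd3 level, 45 with library weights, and 17, 16 and 6 without CML replicates 1, 2 and 3. No pairing by replicate number was seen in the values (correlations of -0.005, -0.002 and -0.019 between same-numbered libraries). With 3 libraries in each group, this cannot show whether same-numbered samples were handled together. With the replicate block, limma gave Tigit an adjusted p of 0.107 at an unchanged log2 fold change. Depth limits Lag3, Havcr2 and Cd160 most, at 24, 22 and 0 estimated reads in CML replicate 2.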
